A study of Mus musculus with 10 samples.

Results

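Lysosomal genes were followed in the hearts of mice injected with saline or given lipopolysaccharide (LPS), the outer membrane component of Gram-negative bacteria that is used to model sepsis. The set is a list of 41 gene symbols, found in the deposited count table among 54532 gene identifiers. They fall into 6 classes: 6 membrane proteins, 7 cathepsins and peptidases, 9 glycosidases and sulfatases, 5 genes of lipid handling, 12 genes of the proton pump and 2 Rag GTPases. All 41 passed the filter on low counts and were tested with 13864 genes in all. The study has 10 libraries of heart RNA from C57BL/6 mice aged 8 weeks, 5 after saline and 5 labelled 24 h after LPS, each numbered as a mouse of its own. The sources used here do not give the sex of the mice or the dose and route of LPS. P-values weigh the difference between the groups against the spread among the 5 libraries within each group. Further tables deposited by the authors name the LPS columns for 3 h and hold the same values as the columns named for 24 h, so the time is that of the labels.

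The lysosome is the acidic compartment in which cells take apart proteins, lipids and sugars that arrive by autophagy and endocytosis. A proton pump, the V-ATPase, acidifies it. In this pump the cytosolic V1 sector splits ATP and the membrane-embedded V0 sector carries the protons. Cathepsins, glycosidases, sulfatases and lipases do the digestion, heavily glycosylated membrane proteins line its wall, and Rag GTPases on its surface report amino acids to the kinase complex mTORC1. In the heart, loss of some of these proteins causes storage diseases of muscle, as with Lamp2 in Danon disease and the glycogen-digesting enzyme Gaa in Pompe disease. Many lysosomal genes carry the sequence CACGTG near their start sites, the core of the site bound by the transcription factor TFEB, named in the study's title.

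Promoter windows of 300 bases (250 before to 50 after a start site, RefSeq, GRCm38.p6) were found for 34 of the 41 genes, and CACGTG, which reads the same on both strands, was in those of 17, or 50%. It was in the windows of 8.09% of all 27025 genes with an entry and of 11.7% of the 10232 tested genes with one. The longer forms GTCACGTG (searched on both strands) and TCACGTGA, which both contain CACGTG, were in 11 and 8 of the 34, against 2.55% and 1.12% of all genes and 4.71% and 2.08% of tested genes. The palindrome of 10 bases that extends GTCACGTG was in 0 of the 34, 0.370% of all genes and 0.772% of tested genes. The related CATGTG (both strands) was in 7 of the 34, or 20.6%, against 15.9% and 10.4%. Lamp1 had 4 copies of CACGTG, the most of any gene in the set. The stretches below are from genes that did not pass the test (Lamp1, Mcoln1 and Ctsd), from the one gene with the motif that rose (Atp6v1a) and from both that fell (Naglu and Sgsh), with CACGTG in capitals and each read 5′ to 3′ on the strand of its gene.
Lamp1 (chr8:13159083-13159160, + strand): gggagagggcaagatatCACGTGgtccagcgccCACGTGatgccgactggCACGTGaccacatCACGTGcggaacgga
Mcoln1 (chr8:3500431-3500496, + strand): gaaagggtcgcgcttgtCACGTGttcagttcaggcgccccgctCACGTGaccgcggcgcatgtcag
Ctsd (chr7:142387903-142387942, - strand): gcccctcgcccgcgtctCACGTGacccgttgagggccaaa
Atp6v1a (chr16:44139368-44139407, - strand): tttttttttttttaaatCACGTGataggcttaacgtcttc
Naglu (chr11:101070004-101070043, + strand): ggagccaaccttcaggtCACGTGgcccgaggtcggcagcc
Sgsh (chr11:119355517-119355556, - strand): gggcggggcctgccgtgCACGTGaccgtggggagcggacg

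Of the 17 genes with CACGTG in a window, 1 rose and 2 fell after LPS, and the median of their log2 fold changes was -0.05. Of the 17 without it, 4 rose and 4 fell, with a median of 0.04. These counts describe letters in a window and were not tested. Lamp2, Scarb2 and Gusb, described below, are among the genes without the motif in these windows. Ctsb, Npc1, Asah1, Galns, Atp6v1b2, Atp6v1c1 and Atp6v1h had no entry.

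Lysosomal genes moved in both directions after LPS. Of the 41 genes 8 rose, 8 fell and 25 did not pass the test (edgeR's quasi-likelihood test, adjusted p under 0.05 over all tested genes). The 16 that passed are 39% of the set, and 39.9% of all tested genes passed, a share close to that of the set. The genes that rose were 3 membrane proteins, 1 cathepsin and 4 subunits of the V1 sector. Those that fell were 5 glycosidases and sulfatases and 3 genes of lipid handling. Outside the set these directions did not hold for every class. Further membrane proteins and transporters had a median log2 fold change of -0.20, against 0.21 for the membrane proteins of the set. Further proteases, lipases and protease inhibitors had -0.19, against 0.12 for the cathepsins and peptidases of the set. The median log2 fold change of the set was 0.03 beside -0.02 over all tested genes, and the range ran from -0.95 to 0.68. In 6 genes every LPS library lay above every saline library and in 6 below, together 12 of 41, while 28.4% of all tested genes did not overlap between the groups.

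**Figure D1:**
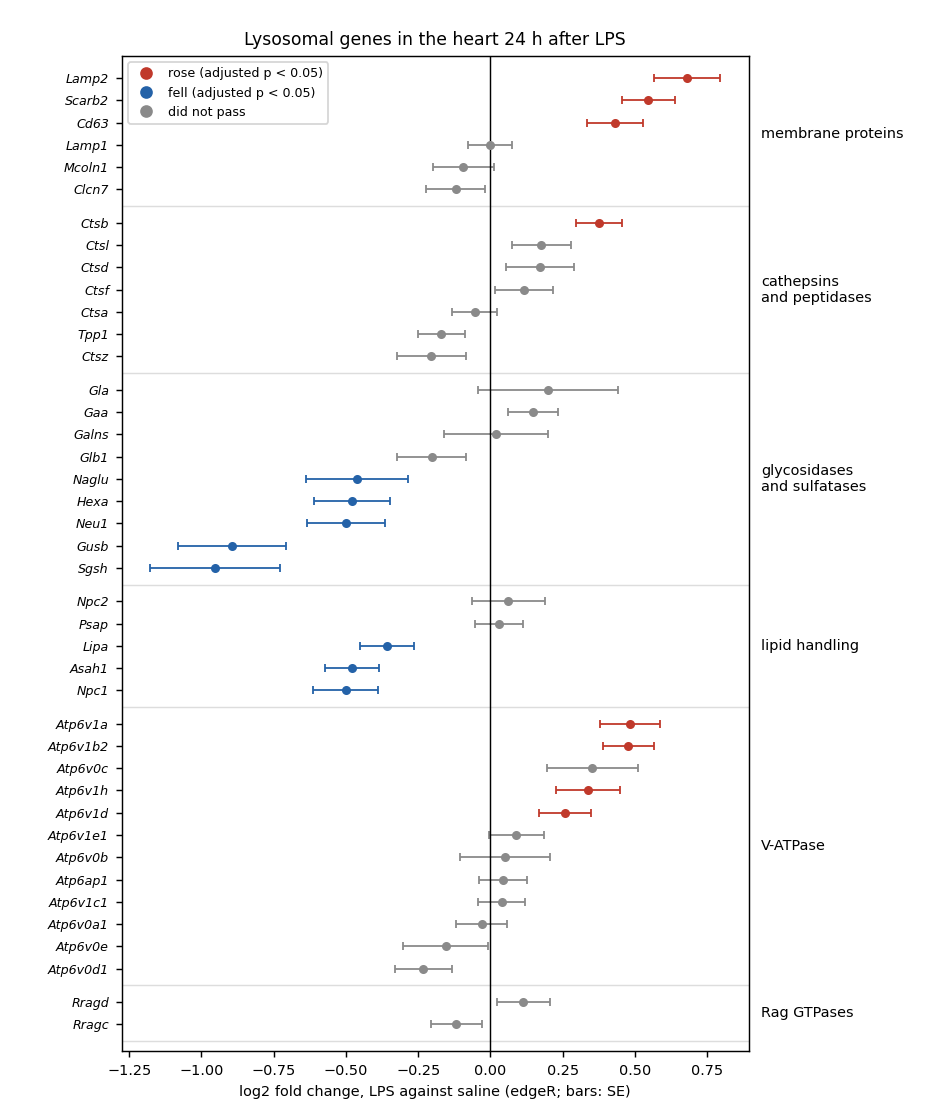
Log2 fold change of LPS against saline for the 41 lysosomal genes (horizontal axis), grouped by class, with points for edgeR estimates from 5 libraries per group with TMM scaling and bars for their SE. Red genes rose, blue genes fell and grey genes did not pass the test. The 8 falling genes are all glycosidases, sulfatases or genes of lipid handling, and the 8 rising genes lie in the other classes, while with total count scaling 2 genes rose and 21 fell, the latter in every class.

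Libraries held 14607969 to 17012372 counts, and the 41 genes took 0.399% to 0.495% of them. CPM are counts scaled to a common library size with TMM factors. Saline replicate 5 stands apart from its group: on the first principal component it lay at -0.22, the other saline libraries between -59.7 and -48.9 and LPS libraries between 38.5 and 48.8. Without it 8 lysosomal genes rose and 7 fell, when 44% of all tested genes passed, 21% rising and 22.9% falling, and the gene that lost its call was Naglu. LPS replicate 5 had the lowest CPM of its group in 26 of the 41 genes. In the same library the long sarcomere gene Ttn was at 3242 CPM, against 1751 to 2107 CPM in LPS replicates 1 to 4, and the short one Myl2 at 3446 CPM, against 4369.8 to 5760.0 CPM. Some other cardiomyocyte genes, such as Pln and Actc1, lay within the range of LPS replicates 1 to 4, and others, such as Tnni3, outside it. A relation to gene length was not tested. Scaling shifts all genes together: upper quartile scaling moved the median log2 fold change of all tested genes by -0.16 and total count scaling by -0.27. Of the genes called, 47.3% rose with TMM, 31.1% under upper quartile scaling and 22.9% under total count scaling. Under total count scaling 2 lysosomal genes rose and 21 fell, when 54% of all tested genes passed. Under upper quartile scaling 6 rose and 15 fell, when 46.2% passed. With RLE scaling 8 rose and 7 fell (40.3% of all tested genes passed), with DESeq2 8 and 8 (42.5%), with limma voom 8 and 7 (40.5%), and with the replicate number as a block 9 and 8 (39.1%), the added gene being Atp6v0c. With 1 library left out 6 to 10 rose and 7 to 9 fell. The share of all tested genes that passed was then 35.4%, 34.2%, 34.6% and 34.6% without saline replicates 1 to 4, and 38.7%, 35.1%, 38.6%, 35.7% and 41% without LPS replicates 1 to 5. Without a filter on low counts 22.3% passed, and with a minimum of 1 CPM in 5 libraries 40.7%.

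Membrane proteins split between genes that rose and genes near the saline level. Lamp2, Scarb2 and Cd63 rose, and Lamp1, Mcoln1 and Clcn7 did not pass, while 18.9% of all tested genes rose and 21% fell. The median log2 fold change of the 6 was 0.21, and -0.06 under total count scaling. None fell by edgeR (0 also at an unadjusted p under 0.05, and 0 by DESeq2 and by limma voom), while 3 fell under total count scaling and 1 under upper quartile scaling.

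Lamp2 (chromosome X, 38401357 to 38456454, GRCm38), a heavily glycosylated protein of the lysosomal wall needed for fusion with autophagosomes and for chaperone-mediated autophagy, was at 172, 185, 183, 171 and 236 CPM in saline replicates 1 to 5 and 264, 330.2, 261, 342 and 320.0 CPM in LPS replicates 1 to 5. Every LPS library lay above every saline library, and saline replicate 5 was the saline library nearest to them. The rise was 1.60-fold (log2 fold change 0.68 ± 0.11 (SE), edgeR adjusted p = 0.000317), and 0.77 on the log2 scale without saline replicate 5. The counts do not separate the splice forms of Lamp2.

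Scarb2 (chromosome 5, 92441314 to 92506833), which encodes LIMP-2, the receptor that carries glucocerebrosidase to the lysosome, was at 201, 216, 192, 181 and 241 CPM in saline replicates 1 to 5 and 305, 311, 277, 305 and 307 CPM in LPS replicates 1 to 5. The groups did not overlap, and 4 of the 5 LPS libraries lay within a few CPM of each other with LPS replicate 3 below them. The change was 1.46-fold (log2 fold change 0.55 ± 0.09 (SE), edgeR adjusted p = 0.000319). Cd63 (chromosome 10, 128900989 to 128912822), a tetraspanin of late endosomes, lysosomes and exosomes, was at 55.1, 63.3, 65.2, 59.7 and 58.1 CPM in saline replicates 1 to 5 and 83.6, 76.6, 90.03, 89.7 and 66.1 CPM in LPS replicates 1 to 5. LPS replicate 5 lay just above the highest saline library, and the other LPS libraries further up (log2 fold change 0.43 ± 0.10 (SE), edgeR adjusted p = 0.00295). Under total count scaling the log2 fold change of Cd63 was 0.15 (adjusted p = 0.236, edgeR). The processed pseudogene Cd63-ps had 1537 reads over the 10 libraries beside 11025 of Cd63, and reads of such copies may have been split between them.

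Lamp1, the other abundant wall protein, was at 419, 407, 432, 398 and 449.7 CPM in saline replicates 1 to 5 and 413, 421, 439.9, 434 and 394 CPM in LPS replicates 1 to 5. The groups overlapped throughout (log2 fold change 0.00 ± 0.08 (SE), edgeR adjusted p = 0.983). Since a ratio within a library does not depend on scaling, Lamp2 was also set against Lamp1: the log2 ratio of their CPM was -1.28, -1.14, -1.24, -1.22 and -0.93 in saline and -0.65, -0.35, -0.75, -0.35 and -0.30 in LPS libraries. The ratio was higher in every LPS library than in every saline library, a difference of 0.68 (exact permutation test, two-sided, n = 5 per group, p = 0.00794, adjusted p = 0.0317 over 4 ratios), and the smallest p that 5 against 5 libraries allow is 0.00794. This pair was chosen with earlier results on Lamp1 and Lamp2 known, so its p-value is not separate support for the rise of Lamp2. Per length, Lamp1 was the more abundant of the pair in both groups, at 166 ± 8.72 FPKM (SD, n = 5) beside 20.9 ± 3.03 FPKM of Lamp2 in saline hearts and 169 ± 6.01 beside 34.1 ± 4.32 FPKM in LPS hearts. Mcoln1, the calcium channel of the lysosome, was at 16 ± 0.839 CPM after saline and 15 ± 1.68 CPM after LPS (SD, n = 5 per group; edgeR adjusted p = 0.509). Clcn7, its chloride-proton exchanger, was at 23.5 ± 2.02 CPM after saline and 21.6 ± 2.13 CPM after LPS (adjusted p = 0.376).

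**Figure D2:**
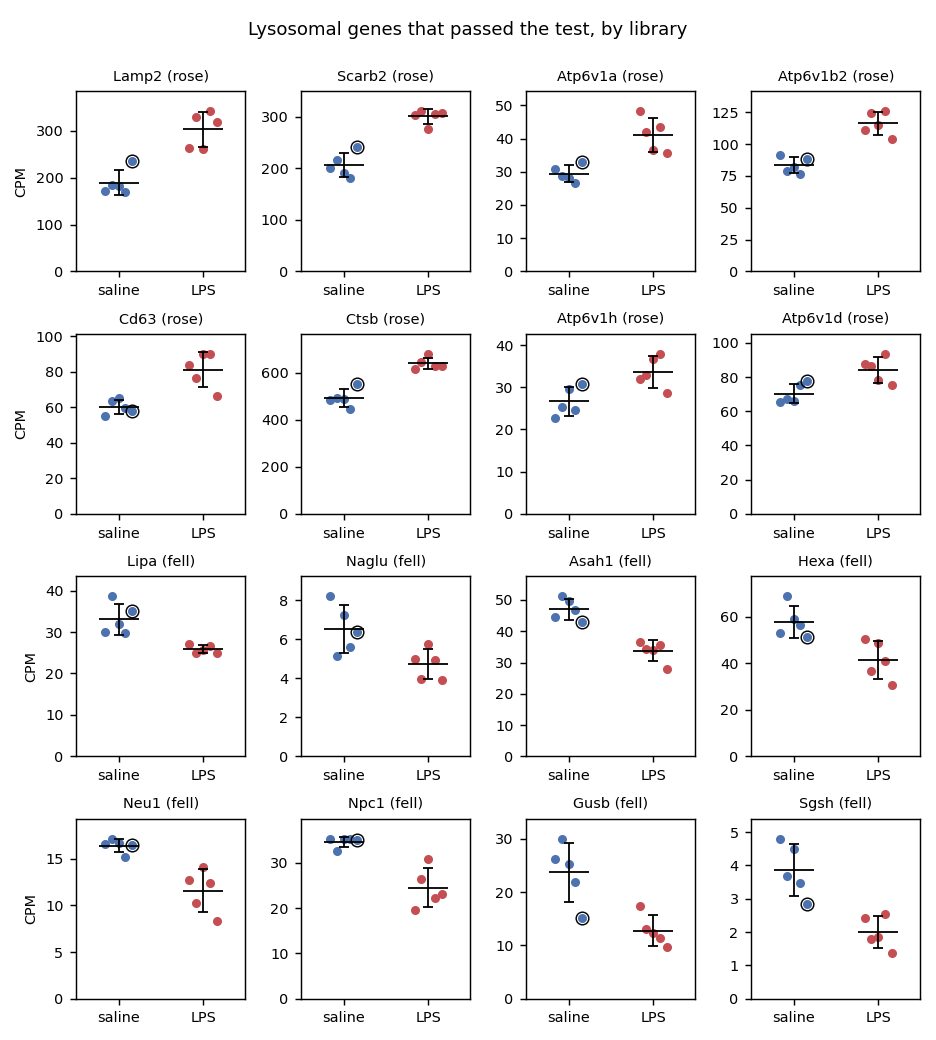
CPM (vertical axes, from 0) of the 16 lysosomal genes that passed the test, by library, with blue points for the 5 saline and red points for the 5 LPS libraries, rings around saline replicate 5, and bars for mean and SD. Lamp2 in saline replicate 5, at 236 CPM, sits between the other saline libraries and the LPS libraries, and Gusb in the same library, at 15.1 CPM, within the LPS range.

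Among the proteases, 1 of 7 rose, while 18.9% of all tested genes rose and 21% fell. Ctsb (chromosome 14, 63122462 to 63145923), a cysteine cathepsin with both endo- and exopeptidase activity, was at 486, 491, 489, 444 and 554 CPM in saline replicates 1 to 5 and 615, 645, 680.1, 629 and 629 CPM in LPS replicates 1 to 5. All LPS libraries lay above all saline libraries, in a narrow band. It rose 1.30-fold (log2 fold change 0.38 ± 0.08 (SE), edgeR adjusted p = 0.00186), and its log2 fold change was 0.11 (adjusted p = 0.288) under total count scaling. Ctsb shares 774 of 6051 exonic bases with Fdft1 on the other strand, which had 4885 reads beside 88420 of Ctsb. The sources used here do not say whether reads were counted by strand.

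Ctsd, the main aspartic protease of lysosomes, was at 319, 323, 334, 288 and 301 CPM in saline replicates 1 to 5 and 409.5, 353, 408, 334 and 258 CPM in LPS replicates 1 to 5. LPS replicates 1 to 4 lay above all saline libraries, replicate 4 only just, and LPS replicate 5 lay below all saline libraries (log2 fold change 0.17 ± 0.12 (SE), edgeR adjusted p = 0.269). Without LPS replicate 5, Ctsd passed (log2 fold change 0.27, edgeR adjusted p = 0.0250). It did not pass when any other single library was left out (edgeR adjusted p up to 0.471). Ctsl, another cysteine cathepsin, was at 171 ± 22.5 CPM after saline and 194 ± 16 CPM after LPS (adjusted p = 0.197). The log2 fold changes of the others that did not pass were 0.12 for the cysteine cathepsin Ctsf, -0.05 for Ctsa, the carboxypeptidase that protects beta-galactosidase and neuraminidase, -0.17 for the tripeptidyl peptidase Tpp1 and -0.20 for the carboxypeptidase Ctsz. Ctsa shares 324 exonic bases with Neurl2 and 495 with Pltp, both on the other strand. No protease of the set fell by edgeR (0 also at an unadjusted p under 0.05, by DESeq2 and by limma voom), and 3 fell under total count or upper quartile scaling. The median of the 7 was 0.12, and it was -0.041 under upper quartile and -0.15 under total count scaling.

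Enzymes that cut sugars and sulfates from glycoproteins, glycolipids and glycosaminoglycans were lower or did not pass. Of 9 genes 5 fell (Sgsh, Gusb, Neu1, Hexa and Naglu) and 0 rose, with 0 rising at an unadjusted p under 0.05, by DESeq2 and by limma voom. The median log2 fold change was -0.46, and -0.74 under total count scaling. Over all tested genes 21% fell, and 18.9% rose.

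Gusb (chromosome 5, 129989011 to 130003049), beta-glucuronidase, was at 26.1, 29.98, 25.3, 21.9 and 15.1 CPM in saline replicates 1 to 5 and 17.4, 13, 12.3, 11.3 and 9.67 CPM in LPS replicates 1 to 5. Saline replicate 5 lay below LPS replicate 1 and so the groups overlapped in that library alone. It fell to 0.538 times the saline level (log2 fold change -0.89 ± 0.19 (SE), edgeR adjusted p = 0.00175), with a log2 fold change of -1.02 without saline replicate 5. Sgsh (chromosome 11, 119343425 to 119355536), the sulfamidase that removes sulfate from heparan sulfate, was at 4.80, 3.68, 4.49, 3.47 and 2.85 CPM in saline replicates 1 to 5 and 2.42, 1.79, 1.84, 2.54 and 1.38 CPM in LPS replicates 1 to 5. It is among the least abundant genes of the set, with 484 reads over the 10 libraries, and every LPS library lay below every saline library (log2 fold change -0.95 ± 0.22 (SE), edgeR adjusted p = 0.00369). Its exons share 955 of 4414 bases with Card14 on the other strand, which had 102 reads.

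Neu1 (chromosome 17, 34931253 to 34935953), the lysosomal neuraminidase, was at 16.5, 17.1, 16.7, 15.2 and 16.4 CPM in saline replicates 1 to 5 and 12.7, 10.2, 14.1, 12.4 and 8.36 CPM in LPS replicates 1 to 5. The saline libraries were close together and the LPS libraries lay below them, spread more widely (log2 fold change -0.50 ± 0.13 (SE), edgeR adjusted p = 0.00853). Hexa (chromosome 9, 59539540 to 59565109), the alpha subunit of beta-hexosaminidase, was at 53.1, 68.7, 58.8, 56.3 and 51.4 CPM in saline replicates 1 to 5 and 50.2, 36.6, 48.5, 40.7 and 30.5 CPM in LPS replicates 1 to 5. The lowest saline library, replicate 5, lay just above LPS replicate 1 (log2 fold change -0.48 ± 0.13 (SE), edgeR adjusted p = 0.0101). Naglu, which removes N-acetylglucosamine from heparan sulfate, was at 8.19, 5.13, 7.24, 5.61 and 6.36 CPM in saline replicates 1 to 5 and 4.98, 3.97, 5.77, 4.91 and 3.93 CPM in LPS replicates 1 to 5. Its groups overlapped, and its call was at the threshold (log2 fold change -0.46 ± 0.18 (SE), edgeR adjusted p = 0.0488). The call did not hold when any of saline replicates 1, 3, 4 and 5 or LPS replicates 1, 2, 4 and 5 was left out (adjusted p up to 0.155), with RLE scaling, with limma voom or without a filter on low counts.

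The other 4 of these enzymes did not pass. Gaa, the glycogen-digesting acid alpha-glucosidase, was at 96.6 ± 6.44 CPM after saline and 107 ± 8.74 CPM after LPS (SD, n = 5 per group; log2 fold change 0.15 ± 0.09 (SE), edgeR adjusted p = 0.195). Its log2 fold change was -0.13 under total count scaling. Glb1, beta-galactosidase, was at 12.8 ± 1.11 CPM after saline and 11.1 ± 1.35 CPM after LPS (adjusted p = 0.197). Glb1 shares 165 exonic bases with Tmppe on the same strand. Gla, alpha-galactosidase, and Galns, a sulfatase of keratan sulfate, were near 2.74 and 3.08 CPM in saline, with log2 fold changes of 0.20 ± 0.24 and 0.02 ± 0.18 (SE).

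Other cell types of the heart moved in the same libraries. RNA from heart tissue cannot tell fewer cells of a type from less RNA per cell. All 12 endothelial markers fell, and 10 of the 12 did so with the replicate number as a block. The summed level of the 12 was 1273 to 2344 CPM in saline and 748 to 976 CPM in LPS libraries. Saline replicate 5 was the lowest saline library at 1273 CPM. Among all tested genes 18.9% rose and 21% fell. Of 18 macrophage and monocyte markers 4 rose and 8 fell, at 649.6 to 912 CPM in saline and 609 to 862 CPM in LPS libraries. Those that rose were Cd14, Fcgr1, Ly6c2 and Timd4 (log2 fold change 2.48, 1.89, 1.48 and 1.47). Fcgr1 was near the threshold (edgeR adjusted p = 0.0466). Its saline replicate 5 was at 33.0 CPM and the other saline libraries at 3.59 to 7.91 CPM. Those that fell were Ccr2, Csf1r, Cd163, Mertk, Aif1, Lyve1, Lyz2 and C1qc. Ccr2 was at 3.49 ± 0.737 CPM after saline and 1.22 ± 0.565 CPM after LPS (mean and SD of 5 libraries). Log2 fold changes were -0.92 for Cd163 and Mertk, -0.81 for Aif1, -0.51 for Lyve1 and Lyz2 and -0.49 for C1qc. The macrophage receptor Csf1r fell, at 59.1 ± 8.01 CPM after saline and 28.2 ± 2.09 CPM after LPS (mean and SD of 5 libraries, edgeR adjusted p = 3.38e-06), while the lysosomal macrophage protein Cd68 was at 9.67 ± 1.63 and 7.83 ± 1.49 CPM (edgeR adjusted p = 0.147). Of 12 neutrophil markers 5 were tested, 2 rose and 1 fell, at 3.65 to 27.5 CPM in saline and 15.8 to 44.6 CPM in LPS libraries in sum, and Elane had 0 reads. Saline replicate 5 was the saline library at 27.5 CPM. Cardiomyocyte markers, which define the tissue, were at 51073 to 62150.5 CPM in saline and 57220.0 to 61179 CPM in LPS libraries, with 2 of 12 rising and 0 falling (0 falling also at an unadjusted p under 0.05, by DESeq2 and by limma voom), and 5 falling under total count scaling. Of 12 fibroblast markers 2 rose and 2 fell, and of 8 T and B lymphocyte markers 1 was tested and 0 passed (0 at an unadjusted p under 0.05, by DESeq2 and by limma voom). The part of these markers in the falls of Gusb, Sgsh, Neu1, Hexa and Naglu, and in the other results, was not tested.

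Lipid handling split into 3 genes that fell and 2 that did not pass, while 21% of all tested genes fell and 18.9% rose. Npc1, Asah1 and Lipa fell, and Psap and Npc2 were near the saline level. The median of the 5 was -0.36, and 0 rose by edgeR (0 also at an unadjusted p under 0.05, by DESeq2 and by limma voom).

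Npc1, the membrane protein that moves cholesterol out of the lysosome, was at 35.3, 32.5, 35.2, 35.1 and 34.9 CPM in saline replicates 1 to 5 and 19.6, 26.5, 30.8, 22.3 and 23.1 CPM in LPS replicates 1 to 5. Saline libraries lay within a few CPM of each other and all LPS libraries below them (log2 fold change -0.50 ± 0.11 (SE), edgeR adjusted p = 0.00280). Npc1 shares 511 exonic bases with Rmc1 on the other strand, whose log2 fold change was -0.01. Npc2, the soluble protein that hands cholesterol to Npc1, was at 49.6, 68.3, 55.9, 51.3 and 64.5 CPM in saline replicates 1 to 5 and 77.8, 58.9, 59.1, 56.3 and 49.96 CPM in LPS replicates 1 to 5, with overlap (log2 fold change 0.06 ± 0.13 (SE), edgeR adjusted p = 0.730). The log2 ratio of Npc1 to Npc2 was -0.49, -1.07, -0.67, -0.55 and -0.88 in saline and -1.99, -1.15, -0.94, -1.34 and -1.12 in LPS libraries. LPS replicate 3 reached into the saline range, and the difference was -0.58 (exact permutation test, two-sided, n = 5 per group, p = 0.0159, adjusted p = 0.0317 over 4 ratios). The adjusted p of that test was 0.0317 without saline replicate 2 and 0.0212 without LPS replicate 3, and between 0.0529 and 0.0794 when any other single library was left out.

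Asah1 (chromosome 8, 41340197 to 41374773), acid ceramidase, was at 44.6, 51.2, 49.5, 46.9 and 43 CPM in saline replicates 1 to 5 and 36.6, 34.5, 34.1, 35.5 and 28 CPM in LPS replicates 1 to 5. The groups did not overlap (log2 fold change -0.48 ± 0.09 (SE), edgeR adjusted p = 0.000978). Lipa (chromosome 19, 34492318 to 34527474), the acid lipase of cholesteryl esters and triglycerides, was at 29.9, 38.6, 32, 29.9 and 35.1 CPM in saline replicates 1 to 5 and 27, 25, 25.5, 26.5 and 25 CPM in LPS replicates 1 to 5. The LPS libraries lay in a band of a few CPM below the lowest saline library (log2 fold change -0.36 ± 0.09 (SE), edgeR adjusted p = 0.00733). Psap (chromosome 10, 60277627 to 60302597), the precursor of the saposins that present sphingolipids to hydrolases, was the most abundant gene of the set per length, at 393 ± 23.7 FPKM in saline and 409 ± 31.6 FPKM in LPS hearts (SD, n = 5 per group). Its CPM overlapped between the groups (log2 fold change 0.03 ± 0.08 (SE), edgeR adjusted p = 0.814), and under total count scaling it fell (log2 fold change -0.24, edgeR adjusted p = 0.0334).

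Among proton pump genes, 4 of 12 rose and 0 fell (1 at an unadjusted p under 0.05 downward, 0 by DESeq2 and by limma voom). All 4 encode V1 subunits: Atp6v1a, Atp6v1b2, Atp6v1h and Atp6v1d. The shares over all tested genes were 18.9% rising and 21% falling. Of the 6 V1 genes of the set 4 rose and of the 6 V0 and accessory genes 0 (1 upward at an unadjusted p under 0.05, 0 by DESeq2 and by limma voom, and 1, Atp6v0c, with the replicate number as a block), and that difference between the sectors was not tested. The median log2 fold change was 0.30 for V1 and 0.01 for V0 and accessory genes, and -0.20 for all 12 under total count scaling, where 0 of the 12 rose and 4 fell. Under upper quartile scaling 2 of the 12 rose, both V1 genes, and 1 fell. Outside the set the pattern by sector did not hold for every subunit. The V0 gene Tcirg1 rose (log2 fold change 2.35), and the V0 genes Atp6v0a2 and Atp6v0e2 did not pass. The V1 genes Atp6v1f, Atp6v1g1 and Atp6v1g2 did not pass either.

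Atp6v1a (chromosome 16, 44085402 to 44139705), the catalytic A subunit, was at 30.9, 28.6, 28.1, 26.5 and 32.9 CPM in saline replicates 1 to 5 and 48.1, 41.9, 36.5, 43.3 and 35.6 CPM in LPS replicates 1 to 5. Every LPS library lay above every saline library (log2 fold change 0.48 ± 0.10 (SE), edgeR adjusted p = 0.00191). Atp6v1b2 (chromosome 8, 69088646 to 69113711), the B subunit that alternates with A in the head of the pump, was at 91.6, 79.3, 82.4, 76.3 and 88 CPM in saline replicates 1 to 5 and 111, 125, 115, 125.7 and 104 CPM in LPS replicates 1 to 5. It too showed no overlap (log2 fold change 0.48 ± 0.09 (SE), edgeR adjusted p = 0.000602). The log2 ratio of Atp6v1a to Atp6v1b2 differed between the groups by 0.00 (exact permutation test, two-sided, n = 5 per group, p = 0.984, adjusted p = 0.984 over 4 ratios), with -1.57 to -1.42 in saline and -1.66 to -1.21 in LPS libraries. Under total count scaling the log2 fold changes of the pair were 0.21 and 0.20 (edgeR adjusted p = 0.107 and 0.0670).

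Atp6v1h (chromosome 1, 5070018 to 5162529), the regulatory H subunit, was at 22.8, 25.4, 29.7, 24.5 and 30.9 CPM in saline replicates 1 to 5 and 32, 33, 36.8, 37.9 and 28.7 CPM in LPS replicates 1 to 5. LPS replicate 5 lay below saline replicates 3 and 5 and the other LPS libraries above all saline libraries (log2 fold change 0.34 ± 0.11 (SE), edgeR adjusted p = 0.0262), and the call did not hold when saline replicate 1 or 4 was left out (edgeR adjusted p up to 0.0700), nor under upper quartile or total count scaling (log2 fold change 0.18 and 0.06, edgeR adjusted p = 0.192 and 0.639). Atp6v1d, part of the central stalk, was at 65.6, 67.4, 65.7, 75.4 and 77.7 CPM in saline replicates 1 to 5 and 87.8, 86.7, 78, 93.5 and 75.1 CPM in LPS replicates 1 to 5. LPS replicate 5 lay below saline replicates 4 and 5, and LPS replicate 3 just above them (log2 fold change 0.26 ± 0.09 (SE), edgeR adjusted p = 0.0338). Its call did not hold when any of saline replicates 1, 2 and 3 or LPS replicates 1 and 4 was left out (edgeR adjusted p up to 0.0913) or without a filter on low counts. Its log2 fold change was 0.10 under upper quartile and -0.01 under total count scaling, without a call in either. The stalk subunit Atp6v1e1 and the C subunit Atp6v1c1 did not pass, with log2 fold changes of 0.09 and 0.04, and Atp6v1c1 fell under total count scaling (-0.24, edgeR adjusted p = 0.0371).

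In the membrane sector, Atp6v0c, the proteolipid of the proton-carrying ring, was at 25.9, 21.1, 23.4, 19.2 and 19.5 CPM in saline replicates 1 to 5 and 35.8, 28.8, 30.2, 26.9 and 17.8 CPM in LPS replicates 1 to 5. LPS replicates 1 to 4 lay above the highest saline library and LPS replicate 5 below the lowest (log2 fold change 0.35 ± 0.16 (SE), edgeR adjusted p = 0.0882). It passed without LPS replicate 5 (log2 fold change 0.48, edgeR adjusted p = 0.00618). It did not pass when any other single library was left out (edgeR adjusted p up to 0.205). Its pseudogene Atp6v0c-ps2 had 65 reads over the 10 libraries. Atp6v0d1, which joins the ring to the stalk, was at 40.6, 43.5, 37, 38.8 and 40.9 CPM in saline replicates 1 to 5 and 30.4, 32.2, 41.2, 35.7 and 31.4 CPM in LPS replicates 1 to 5. LPS replicate 3 lay within the saline range and the other LPS libraries below it (log2 fold change -0.23 ± 0.10 (SE), edgeR adjusted p = 0.0751). The gene passed downward without LPS replicate 3 (log2 fold change -0.30, edgeR adjusted p = 0.0161). It did not pass when any other single library was left out (edgeR adjusted p up to 0.225). The log2 fold changes of the a subunit Atp6v0a1, the proteolipid Atp6v0b, the small subunit Atp6v0e and the accessory protein Atp6ap1 were -0.03, 0.05, -0.16 and 0.04, with SE of 0.09, 0.16, 0.15 and 0.08.

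Levels per gene length differed between subunits of the pump. Within saline hearts Atp6ap1 was highest at 37.2 ± 1.65 FPKM (SD, n = 5), followed by Atp6v1e1 at 23.9 ± 1.57 and Atp6v0d1 at 23.6 ± 1.4 FPKM, which do not differ beyond their spread. Atp6v0b followed at 21 ± 2.15 FPKM, and Atp6v1b2 and Atp6v1d, at 16.6 ± 1.28 and 16.1 ± 1.34 FPKM, overlapped in theirs. The A subunit Atp6v1a, at 5.12 ± 0.451 FPKM, was below the B subunit, and Atp6v1h was lowest at 2.88 ± 0.385 FPKM. Atp6v0a1, Atp6v0e, Atp6v1c1 and Atp6v0c lay between 6.79 and 11.1 FPKM. Gene lengths in these values are the authors'.

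**Figure D3:**
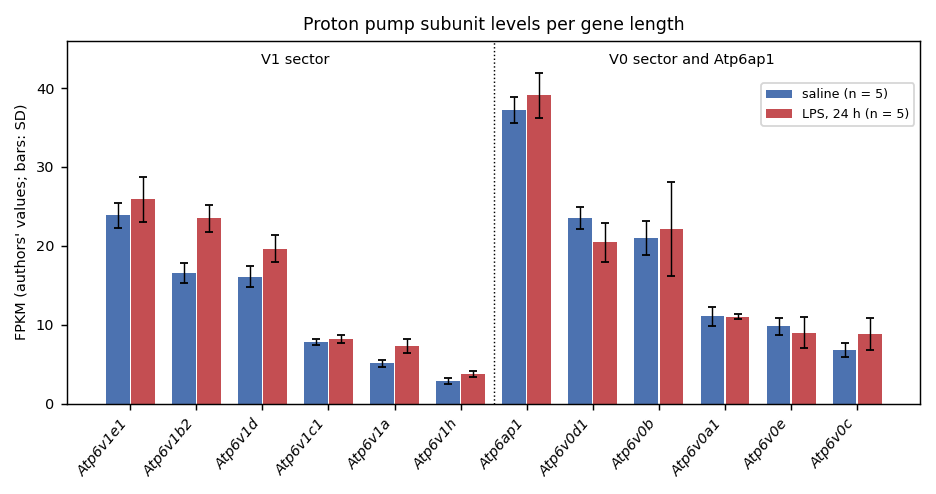
Mean FPKM (vertical axis, the authors' values, bars for SD over 5 libraries) of the 12 V-ATPase genes in saline (blue) and LPS (red) hearts, V1 sector on the left and V0 sector with Atp6ap1 on the right. Atp6v1b2 stands at 16.6 in saline and 23.5 in LPS hearts, beside Atp6v0a1 at 11.1 and 11.

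The Rag GTPases, which dock mTORC1 at the lysosome when amino acids are plentiful, did not pass. Rragc was at 44.3, 44.4, 42.4, 46.9 and 43.9 CPM in saline replicates 1 to 5 and 35, 40.8, 47, 40.1 and 41.5 CPM in LPS replicates 1 to 5, with overlap (log2 fold change -0.12 ± 0.09 (SE), edgeR adjusted p = 0.317). Rragd, its close relative, was at 111, 104, 106, 125 and 131 CPM in saline replicates 1 to 5 and 121, 133, 114, 128 and 129 CPM in LPS replicates 1 to 5, also with overlap (log2 fold change 0.11 ± 0.09 (SE), edgeR adjusted p = 0.352). Neither passed in either direction at an unadjusted p under 0.05, by DESeq2 or by limma voom, while Rragc fell under upper quartile and total count scaling (log2 fold change -0.28 and -0.39). The log2 ratio of Rragd to Rragc was 1.37 ± 0.13 (SD) in saline and 1.62 ± 0.20 in LPS libraries, a difference of 0.24 (exact permutation test, two-sided, n = 5 per group, p = 0.0635, adjusted p = 0.0847 over 4 ratios). Without LPS replicate 3, whose ratio was 1.27, the difference was 0.33 with an exact permutation adjusted p = 0.0212. When any other single library was left out, the adjusted p of that test was between 0.0529 and 0.148.

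**Figure D4:**
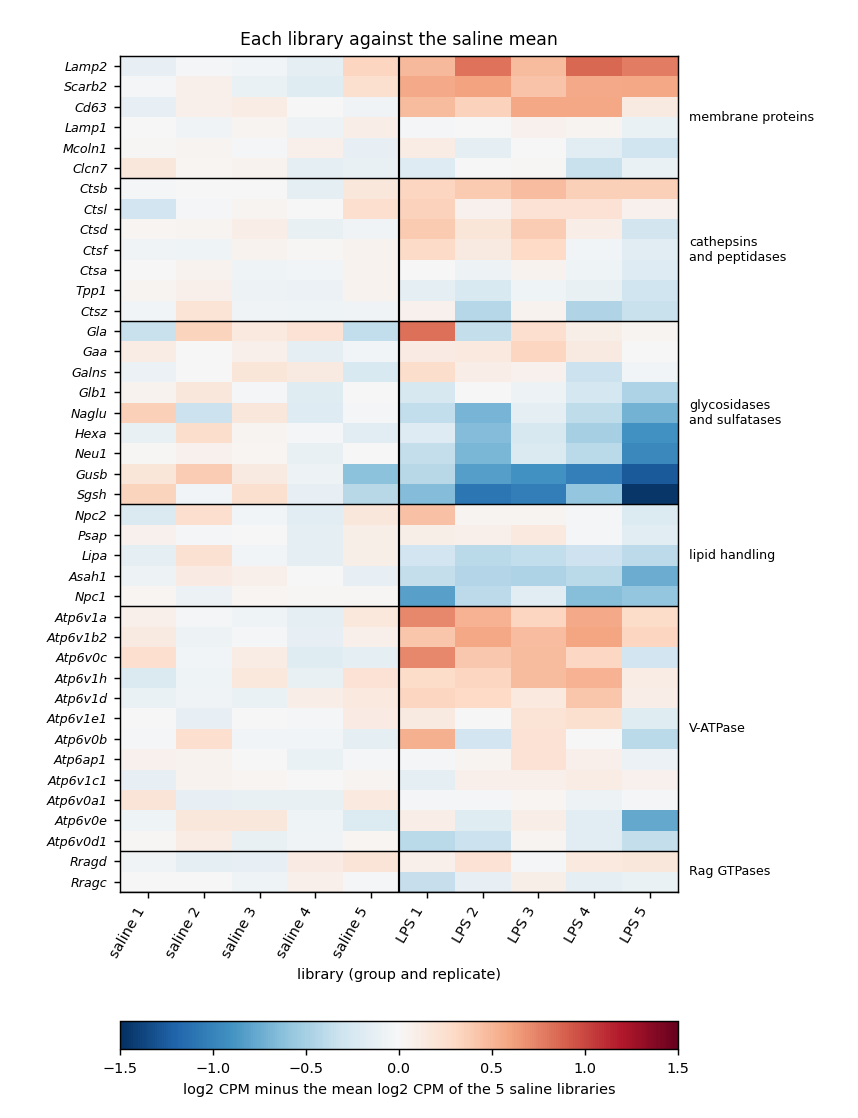
Log2 CPM of each lysosomal gene in each library minus the mean of the 5 saline libraries (colour scale from blue, lower, to red, higher), with genes in rows by class and libraries in columns. Glycosidases such as Gusb and Sgsh are blue across the LPS columns, Lamp2 and Scarb2 are red, and LPS replicate 5 is the lowest LPS library in 26 of 41 rows.

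Other genes of the same classes, in lists of genes outside the set, were read from the same fit. Of 24 further glycosidases, sulfatases and cofactors 12 fell and 3 rose, a median log2 fold change of -0.37, beside 21% falling and 18.9% rising among all tested genes. The hyaluronidase Hyal2 fell from 21.4 ± 2.47 CPM after saline to 8.17 ± 0.960 CPM after LPS (log2 fold change -1.39 ± 0.12 SE, edgeR adjusted p = 1.46e-06). Hyal1 fell from 2.97 ± 0.911 CPM after saline to 1.19 ± 0.354 CPM after LPS (log2 fold change -1.31 ± 0.30 SE, edgeR adjusted p = 0.00285), but 1920 of its 3777 exonic bases are shared with Naa80, which had 1437 reads beside 351. Acp5, the tartrate-resistant acid phosphatase of macrophages and osteoclasts, rose from 0.509 ± 0.147 CPM after saline to 2.90 ± 0.725 CPM after LPS (log2 fold change 2.50 ± 0.28 SE, edgeR adjusted p = 1.03e-05).

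Of 16 further proteases, lipases and protease inhibitors 5 fell and 0 rose (1 upward at an unadjusted p under 0.05, 1 by DESeq2, 0 by limma voom), with a median of -0.19. Without saline replicate 5, or without LPS replicate 4, 1 of them rose. Among all tested genes 18.9% rose and 21% fell. The lysosomal phospholipase Pla2g15 fell from 7.78 ± 2.54 CPM after saline to 2.59 ± 0.666 CPM after LPS (log2 fold change -1.57 ± 0.26 SE, edgeR adjusted p = 0.000233), and the carboxypeptidase Prcp from 17.1 ± 4.32 CPM after saline to 8.49 ± 1.65 CPM after LPS (log2 fold change -1.01 ± 0.18 SE, edgeR adjusted p = 0.000601). Of 17 further V-ATPase subunits, assembly factors and regulators 3 rose and 1 fell, with a median of -0.02. Those that passed were 23.5% of this list, beside 39.9% of all tested genes. Tcirg1, which encodes the a3 form of the large V0 subunit, known from osteoclasts and macrophages, rose from 11.7 ± 4.22 CPM after saline to 59.4 ± 7.50 CPM after LPS (log2 fold change 2.35 ± 0.21 SE, edgeR adjusted p = 5.91e-06). Ncoa7, a TLDc-domain protein that binds the pump, rose from 12.3 ± 14 CPM after saline to 115 ± 48.1 CPM after LPS (log2 fold change 3.23 ± 0.72 SE, edgeR adjusted p = 0.00738), with a log2 fold change of 4.25 without saline replicate 5. The assembly factor Ccdc115 fell from 14.2 ± 1.93 CPM after saline to 10.3 ± 1.21 CPM after LPS (log2 fold change -0.46 ± 0.13 SE, edgeR adjusted p = 0.0108). The V1 subunits Atp6v1f and Atp6v1g1, outside the set, did not pass, with log2 fold changes of -0.15 and -0.02.

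Of 31 further membrane proteins and transporters 8 rose and 12 fell, with a median of -0.20. Among all tested genes 18.9% rose and 21% fell. Slc15a3, a lysosomal carrier of histidine and peptides that include bacterial ones, rose from 10.1 ± 10.8 CPM after saline to 193 ± 24.4 CPM after LPS (log2 fold change 4.26 ± 0.66 SE, edgeR adjusted p = 0.00102). It shares 1541 of 5491 exonic bases with Tmem132a on the other strand, whose own log2 fold change was 1.65. Mcoln2, a relative of Mcoln1, rose from 1.10 ± 2.21 CPM after saline to 30.5 ± 2.49 CPM after LPS (log2 fold change 4.83 ± 0.95 SE, edgeR adjusted p = 0.00394), and nearly all of its saline signal was in replicate 5, at 5.05 CPM. Without saline replicate 5 the log2 fold change was 8.01 for Mcoln2 and 5.18 for Slc15a3. The nucleoside transporter Slc29a3 and the cystine transporter Ctns fell, with log2 fold changes of -1.42 ± 0.32 and -1.02 ± 0.16 (SE).

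Of 28 genes of the Ragulator, Rag and GATOR complexes and of lysosome transport 3 rose and 3 fell, with a median of -0.02. Those that passed were 21.4% of this list, below the 39.9% of all tested genes. Seh1l and Wdr59, both of the GATOR2 complex, rose (0.68 ± 0.11 and 0.56 ± 0.11), and the folliculin partner Fnip2 fell (-0.56 ± 0.12), as did Flcn (-0.76 ± 0.10). Of 30 genes that sort hydrolases to the lysosome 5 rose and 4 fell, with a median of -0.09. Those that passed were 30% of this list, also below the 39.9% of all tested genes. Gnptab, which encodes the enzyme that starts the mannose 6-phosphate tag of hydrolases, rose from 38.7 ± 1.84 CPM after saline to 67.8 ± 6.45 CPM after LPS (log2 fold change 0.81 ± 0.09 SE, edgeR adjusted p = 6.92e-06). Nagpa, which uncovers that tag, fell from 10.9 ± 1.81 CPM after saline to 7.13 ± 1.03 CPM after LPS (log2 fold change -0.61 ± 0.15 SE, edgeR adjusted p = 0.00592). Grn, the precursor of lysosomal granulins, rose (0.37 ± 0.13), which did not hold when any of saline replicates 1, 3 and 4 or LPS replicates 1 and 2 was left out (edgeR adjusted p up to 0.104), and Vps18, of the tethering complexes of late endosomes, fell (-0.63 ± 0.14).

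Of the 4 MiT transcription factors, which bind CACGTG, Tfeb (log2 fold change -0.61 ± 0.15 SE) and Mitf (-0.62 ± 0.15) fell and Tfec (2.22 ± 0.64) rose, a call lost without saline replicate 2 (edgeR adjusted p = 0.0522). Without saline replicate 5, at 4.99 CPM the highest saline library, the log2 fold change of Tfec was 3.53. Tfe3 did not pass (-0.29 ± 0.15).

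**Figure D5:**
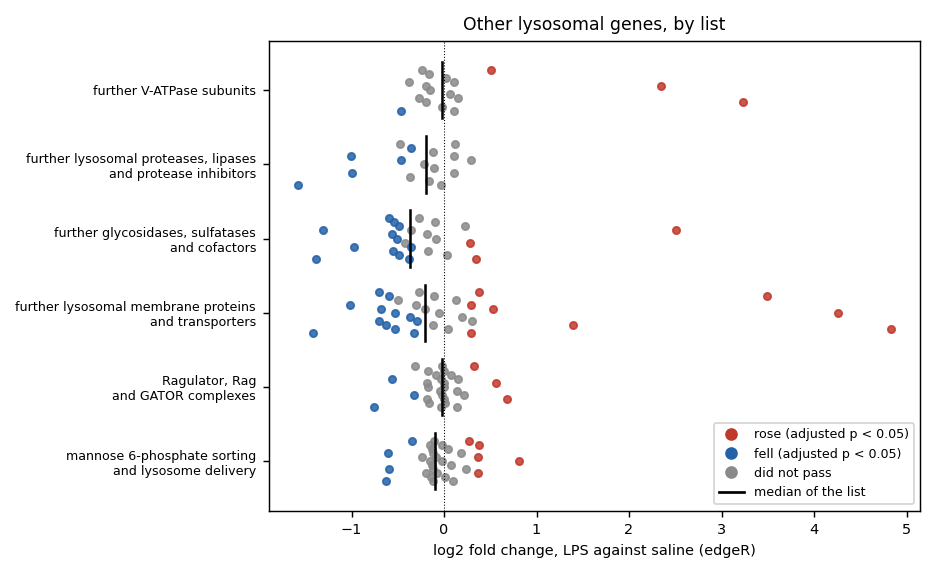
Log2 fold change of LPS against saline (horizontal axis, edgeR, TMM scaling) of each tested gene in 6 further lists of lysosomal genes, with points coloured by call and a black line at each median. The glycosidase list is centred at -0.37, and points beyond 2 on the right include Slc15a3 and Mcoln2, Tcirg1 and Ncoa7, and Acp5.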

How the data were processed

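Libraries of total RNA from 10 hearts were made with the TruSeq RNA Sample Prep Kit, per the labels' protocols. The deposited table holds raw counts for each gene, and next to these the authors' FPKM values (scaled to gene length and library size). Bowtie 0.12.2 and mm9 are named, without a role, per the submitters' processing notes. Of 54532 identifiers 54409 were found in GENCODE M21 and 53499 had the same start and end there, so coordinates are given as GRCm38. The sources used here do not give the counting tool or its strand setting. The 20 columns of 2 further FPKM tables were only compared with the FPKM columns and are equal to them.

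The counts went into edgeR 4.0.16 under R 4.3.3: filterByExpr (minimum count 10, minimum total 15) kept 13864 genes, TMM scaling, robust quasi-likelihood F-test, Benjamini-Hochberg adjustment over all tested genes, threshold 0.05. SE come from the F statistic. The procedure was tested on simulated data. Ratios of gene pairs were compared by exact permutation over 252 assignments. FPKM entered no test. Alternatives were 3 other scalings, 2 filters, DESeq2 1.42.0, limma 3.58.1 voom, a replicate block and leaving out each library. Depth was 14607969 to 17012372 counts. The genes, lists and pairs were chosen with earlier results of these data known, and all 41 genes and up to 2 genes per direction of each further list are named, except 1 that is not reported here. Overlaps with genes of at least 100 reads were read from GENCODE M21. Principal components used log2(CPM + 0.5) of the 1000 most variable genes.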

Additional observations from a re-analysis of the deposited data

Results flagged for a closer look

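In 90 groups of 5 values (41 genes in CPM and 4 ratios, in saline and in LPS libraries) 9 held a library whose gap to its nearest neighbour exceeded Dixon's 95% critical value of 0.71 of the group's range, a limit that chance passes in about 1 of 20 groups. Lamp2 in saline replicate 5 was at 236 CPM and the others of its group between 171 and 185 CPM. Scarb2 in LPS replicate 3 was at 277 CPM and the others of its group between 305 and 311 CPM. Npc1 in saline replicate 2 was at 32.5 CPM and the others of its group between 34.9 and 35.3 CPM. Asah1 in LPS replicate 5 was at 28 CPM and the others of its group between 34.1 and 36.6 CPM. Ctsz in saline replicate 2 was at 40.1 CPM and the others of its group between 33.2 and 33.7 CPM. Atp6v0b in saline replicate 2 was at 48.3 CPM and the others of its group between 36.8 and 40.1 CPM. Atp6v1c1 in saline replicate 1 was at 38 CPM and the others of its group between 41.7 and 43 CPM. In LPS replicate 1 Atp6v1c1 was at 37.5 CPM and the others of its group between 43.3 and 44.8 CPM. The log2 ratio of Atp6v1a to Atp6v1b2 in LPS replicate 1 was -1.21 and the others of its group between -1.66 and -1.54.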

How the results depend on the processing

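Of the values of single lysosomal genes under the alternatives, 647 kept their direction and side of the threshold, 43 changed sign, and of the others 26 lost a call and 22 gained one. Under total count scaling 2 genes of the set rose and 21 fell, with 1711 rising and 5774 falling of all tested genes. Under upper quartile scaling 15 of the set fell, and 4407 of all tested genes. For the whole set the median log2 fold change moved to -0.13 (upper quartile) and -0.24 (total count). By class, in the same order, it was 0.056 and -0.061 for membrane proteins, -0.51 and -0.63 for lipid handling, -0.089 and -0.20 for the V-ATPase and -0.16 and -0.27 for the Rag GTPases. For cathepsins and peptidases it was -0.041 and -0.15, and for glycosidases and sulfatases -0.62 and -0.74. Under total count scaling 14 genes changed sign: Ctsd -0.10, Ctsf -0.15, Ctsl -0.090, Gla -0.070, Gaa -0.13, Galns -0.25, Psap -0.24, Npc2 -0.21, Atp6v0b -0.22, Atp6ap1 -0.23, Atp6v1c1 -0.24, Atp6v1d -0.015, Atp6v1e1 -0.19 and Rragd -0.16. Of these Psap and Atp6v1c1 passed and Atp6v1d lost its call. Under upper quartile scaling 10 did, none with a call: Ctsf -0.041, Gaa -0.011, Galns -0.14, Psap -0.13, Npc2 -0.094, Atp6v0b -0.11, Atp6ap1 -0.11, Atp6v1c1 -0.12, Atp6v1e1 -0.069 and Rragd -0.042. Lamp1 went from -0.0026 to 0.023 (RLE), 0.023 (DESeq2) and 0.0014 (no filter). Total count scaling left 9 further V-ATPase genes, 10 proteases and lipases, 19 glycosidases, 10 genes of the Ragulator list and 19 of the sorting list falling, and 1, 5, 1 and 1 glycosidases, membrane proteins, Ragulator and sorting genes rising. With upper quartile scaling 3, 10, 5 and 11 V-ATPase, protease, Ragulator and sorting genes of these lists fell, and 1, 5 and 1 glycosidases, membrane proteins and sorting genes rose. Without a filter on low counts 3 further V-ATPase genes fell and 0 MiT factors rose, and with RLE scaling or DESeq2 1 further protease or lipase gene rose.

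Without any 1 library between 6 and 10 genes of the set rose and between 7 and 9 fell. The proteases and lipases rising ranged from 0 to 1 and the MiT factors rising from 0 to 1. The log2 fold changes that changed sign without 1 library, none of them called, ranged from -0.024 to 0.026 for Lamp1, from -0.041 to 0.12 for Galns, from -0.0045 to 0.081 for Psap, from -0.041 to 0.15 for Npc2, from -0.062 to 0.037 for Atp6v0a1 and from -0.096 to 0.15 for Atp6v0b. The difference in log2 ratio ranged from -0.073 to 0.039 for Atp6v1a to Atp6v1b2, from -0.67 to -0.41 for Npc1 to Npc2 and from 0.20 to 0.33 for Rragd to Rragc.

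Same-numbered libraries do not come from the same mouse, and their deviations from the group means correlated by -0.07 to 0.18 over 13864 genes, with 1 of 5 saline libraries closest to its own number, so the numbers were not taken as pairs. With the replicate block 9 genes of the set rose and 8 fell, and 1 further protease or lipase gene rose. In the same pairing the differences in log2 ratio of 0.68 (Lamp2 to Lamp1) and -0.58 (Npc1 to Npc2) had an exact sign permutation p = 0.0625, the smallest that 5 pairs allow. Low depth limits Gla, Sgsh and Galns, with 465, 484 and 492 reads over the 10 libraries.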

Other observations

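Saline replicate 5 was placed, for each of the 16 lysosomal genes that passed, on the way from the mean of saline replicates 1 to 4 to the mean of the LPS libraries. The median position was 39% of the way, between -35.9% for Lipa and 82% for Gusb, and 12 of the 16 lay on the side of the LPS libraries. Positions were 46.1% for Lamp2, 42.5% for Scarb2 and 46.9% for Ctsb, against -4.05% for Npc1 and -0.652% for Neu1. These are positions of 1 library, with no error of their own.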
